A study of Mus musculus with 11 samples.

Results

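Expression of 39 genes of fatty acid oxidation and the citric acid cycle was examined in the aorta of old mice with and without dietary nitrate. The genes were listed by name and function, with earlier results of these data known, and every array spot bearing one of these names was taken. They comprised 22 genes of fatty acid oxidation, including the regulator Ppara, and 17 genes of the citric acid cycle and of the enzymes that feed pyruvate into it, among 36413 names on the array. All 39 were detected, through 50 of their 52 probes. The old nitrate treated group was made of male C57BL/6 mice aged 20 months that drank water with 1 g/L NaNO3 over 8 weeks. The old control group was made of mice of the same strain, sex and age. The paper names sodium chloride at an equal concentration as their treatment, whereas the sample labels name none and describe a re-analysis of earlier samples. Each of the 11 arrays measured the descending aorta of 1 mouse, 5 nitrate treated and 6 control. Another nitrate array of the study is not used here. The question was which of these genes differ in expression after the nitrate supplementation.

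Fatty acids enter mitochondria as carnitine esters and are shortened in repeated cycles of oxidation, hydration, oxidation and thiolysis to acetyl-CoA, with electrons passing to the respiratory chain through electron transferring flavoprotein. The citric acid cycle oxidizes acetyl-CoA from fatty acids and from pyruvate, and pyruvate carboxylase refills it with oxaloacetate. In the vessel wall smooth muscle and endothelial cells hold these enzymes at moderate levels, whereas brown adipocytes of perivascular fat and heart muscle are rich in them.

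The values are quantile normalized log2 signals of Cy3-labeled RNA, so that a difference of -1 is a halving, and differences are given as nitrate minus control. The 75th percentile of the spot signal lay between 213 and 289 on the 11 arrays, no spot was saturated, and log2 signals correlated at 0.975 to 0.989 between arrays. The arrays lay on 3 slides. Slide 1 held nitrate treated mice 1 and 2 and controls 1 and 2, slide 2 held nitrate treated mouse 3 and controls 4 and 6, and slide 3, scanned on another day, held nitrate treated mice 4 and 5 and controls 3 and 5. Column 3 of the slides held every control array and no nitrate array, so column and treatment cannot be told apart. The smooth muscle markers including Myh11 and the endothelial markers including Pecam1 were detected, as were the adipocyte marker Adipoq and the brown adipocyte marker Ucp1, although the vessels had been cleaned of surrounding fat. The striated muscle markers stood apart in nitrate treated mouse 4 and control 1, with mean levels of 3.17 and 2.68 relative to the mean of all mice, against -1.54 to 0.52 in the other mice. In whole aorta, fewer cells of a type and less RNA per cell cannot be told apart.

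A total of 8 of the 39 genes were lower in old nitrate treated mice and 0 were higher by the paper's rule, which asks for P under 0.05 before adjustment, here in limma, together with a fold change above 1.2. The 8 were Ppara, Acads, Acaa2 and Etfb of fatty acid oxidation (4 of 22) and Pcx, Cs, Idh3g and Ogdh of the citric acid cycle group (4 of 17). Of all 23630 detected transcripts, 4.85% were lower and 4.16% higher by the same rule. None of the 39 genes had a Benjamini-Hochberg adjusted P value under 0.05, the lowest being 0.173, and 3 transcripts, or 0.0127%, did so in the whole set. By P under 0.05 alone, with any fold change, the number was 8 of 39, all lower, against 14.4% of all detected transcripts in either direction and 6.65% lower. The difference was below 0 in 37 of the 39 genes, against 46.2% of all detected transcripts. Its median was -0.23 over the fatty acid oxidation genes and -0.21 over the citric acid cycle genes, against 0.01 over all detected transcripts. The genes were chosen with earlier results of these data known, so these counts and medians describe the list and do not test it as a set. None of the 39 genes had groups without overlap, as 2.75% of all detected transcripts did, 1.14% lower and 1.61% higher.

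The count depended on single mice. Without nitrate treated mouse 1, 2 or 3 the rule named 4 genes, without control 1, 2 or 4 it named 5, and without nitrate treated mouse 5 it named 15. The share of all detected transcripts lower by the rule moved as well. It was 4.01%, 3.51% and 4.31% without nitrate treated mouse 1, 2 and 3, and 5.45% without mouse 5, against 4.85% with all mice. Without control 1, 2 and 4 it was 3.54%, 4.46% and 4.44%. Without nitrate treated mouse 4 and control 1 together, the mice with high striated muscle markers, the rule named 8 genes and 4.08% of all transcripts as lower. This setting was added after the data had been seen. Of 10 adipocyte markers, 5 were lower by the rule and 0 higher, and their mean level lay between -0.46 and 0.00 in nitrate treated mice and between -0.12 and 0.46 in controls. In nitrate treated mice 1 to 5 these markers were at -0.46, -0.16, -0.11, -0.0002 and -0.21. The fatty acid oxidation genes were at -0.37, -0.42, -0.21, 0.08 and 0.33 in the same mice. In controls 1 to 6 the markers were at 0.46, 0.05, 0.46, 0.08, 0.01 and -0.12. There the fatty acid oxidation genes were at 0.46, 0.07, 0.08, 0.12, 0.04 and -0.17. The part of the adipocyte markers in the result was not tested.

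**Figure D1:**
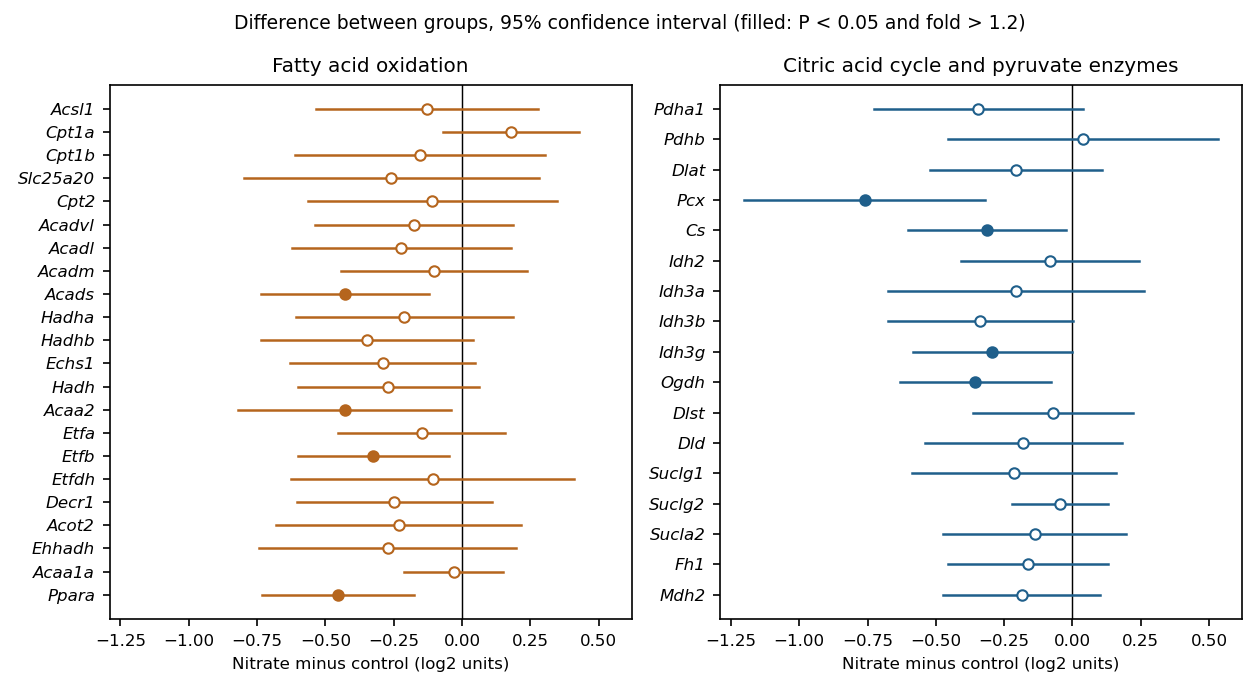
Difference between old nitrate treated and old control mice in log2 units for the 22 fatty acid oxidation genes (left) and the 17 citric acid cycle and pyruvate enzymes (right), with 95% confidence intervals and filled points for genes that met the rule. Points lie left of 0 for 37 of 39 genes, and most intervals include 0.

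**Figure D2:**
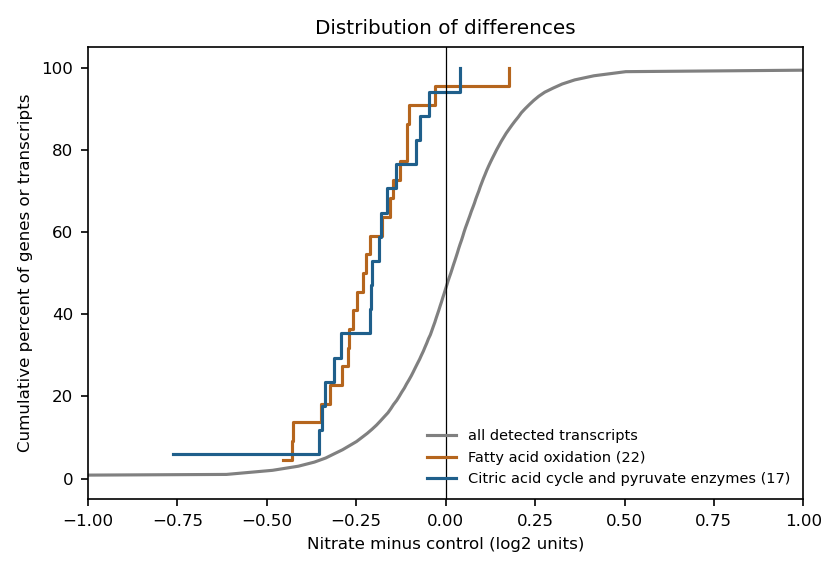
Cumulative percent of genes against the log2 difference, for all 23630 detected transcripts (gray, drawn from percentiles and shown between -1 and 1) and for both groups of genes. The curves of the 22 and 17 genes lie to the left of that of all transcripts, with medians of -0.23 and -0.21 against 0.01.

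Promoter sequence was available for 35 of the 39 genes in the RefSeq table of GRCm38.p6, as the 250 bases before the first listed start site of each gene. The sequences are shown for Ppara, Acads and Pcx, the 3 genes that met the rule in each of 22 other settings of the processing and of the arrays, whole for 2 of them and as a stretch of 30 bases for Ppara. In capitals are the matches found, the core bound by NRF1 (a factor of mitochondrial genes) in Ppara, the GC box GGGGCGGGG on the opposite strand in Acads, and the E-box CACGTG in Pcx.
Ppara, chr15:85735735-85735764, plus strand: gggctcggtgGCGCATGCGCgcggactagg
Acads, chr5:115119347-115119596, minus strand: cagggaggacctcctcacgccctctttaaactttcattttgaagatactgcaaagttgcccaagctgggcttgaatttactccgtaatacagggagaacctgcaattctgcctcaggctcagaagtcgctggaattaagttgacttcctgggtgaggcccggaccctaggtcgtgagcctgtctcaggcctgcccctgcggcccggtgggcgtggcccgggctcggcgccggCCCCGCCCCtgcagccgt
Pcx, chr19:4510222-4510471, plus strand: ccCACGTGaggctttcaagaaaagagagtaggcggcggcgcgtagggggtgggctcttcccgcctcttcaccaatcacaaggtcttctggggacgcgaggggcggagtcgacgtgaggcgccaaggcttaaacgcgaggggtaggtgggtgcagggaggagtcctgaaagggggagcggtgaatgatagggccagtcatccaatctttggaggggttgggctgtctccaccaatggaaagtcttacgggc
Both strands were searched in each of 27025 promoters. The direct repeat that PPAR-RXR dimers bind, 2 copies of AGGTCA with 1 base between them, was found in 0 of the 35 promoters and in 0.037% of all promoters. Its looser form with AGGNCA in both copies, which includes the former, was found in 0 and in 0.333%. The estrogen-related receptor element TCAAGGTCA was found in 0 of the 35 and in 0.366% of all, and the ETS element ACCGGAAGT in 0 and in 0.781%. The NRF1 core was found in 2, Ppara and Etfdh, against 0.781% of all promoters. The GC box was found in 8 of the 35 promoters, against 10.5% of all, and the E-box in Pcx alone, against 6.05%. These matches describe letters in short windows and not binding.

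Ppara encodes PPAR alpha, the nuclear receptor that drives transcription of many fatty acid oxidation genes. Its log2 signal was 11.42, 11.25, 11.61, 11.94 and 11.82 in nitrate treated mice 1 to 5, and 11.88 at the lowest, 12.04 at the median and 12.31 at the highest in the 6 controls. Nitrate treated mice 1, 2, 3 and 5 lay below every control, and mouse 4 lay among the lower controls, so that the groups overlapped by that mouse. The means were 11.61 ± 0.28 (SD, n = 5) and 12.06 ± 0.17 (SD, n = 6). Ppara fell by 0.45 (SE 0.13), a fold change of 1.37, with P = 0.0041 and adjusted P = 0.193 in limma and P = 0.00866 in the exact two-sided permutation test over the 462 divisions of the mice. This probe lies at chr15:85632110-85632169 in mm9. A second probe of Ppara also met the rule, with a difference of -0.43. The remaining probe did not pass the detection rule and had a difference of -0.39.

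Activation of fatty acids and their carriage into mitochondria involve 5 of the genes, of which 0 met the rule. Cpt1a and Cpt1b encode the liver and muscle forms of carnitine palmitoyltransferase 1, the step at which fatty acid entry is controlled. Cpt1a read 10.46, 10.73, 10.52, 10.30 and 10.60 in nitrate treated mice 1 to 5 and 9.92, 10.41 and 10.55 at the lowest, median and highest control. Cpt1a had the only difference above 0 among the fatty acid oxidation genes, 0.18 (95% confidence interval -0.07 to 0.43, limma P = 0.146, exact permutation P = 0.171), and its second probe gave 0.19. Control 1, the lowest value, was the control with the highest level of most other members. Cpt1b read 10.65, 10.07, 10.69, 11.15 and 11.26 in nitrate treated mice 1 to 5 and 10.63, 10.85 and 11.44 at the lowest, median and highest control. Its difference was -0.15 (95% confidence interval -0.61 to 0.30, exact permutation P = 0.537), and the groups overlapped widely. The differences of Acsl1, which activates long-chain fatty acids, of the carnitine carrier Slc25a20 and of Cpt2, which returns the acyl group to coenzyme A, were -0.13, -0.26 and -0.11.

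The acyl-CoA dehydrogenases carry out the first oxidation, each for its own chain length. Acads, the short-chain enzyme, read 9.89, 9.83, 10.13, 10.18 and 10.38 in nitrate treated mice 1 to 5, and 10.16, 10.50 and 10.90 at the lowest, median and highest control. Nitrate treated mice 1 to 3 lay below every control, and mice 4 and 5 lay within the control range. Acads fell by 0.43 (SE 0.14), a fold change of 1.34, from 10.51 ± 0.27 to 10.08 ± 0.22 (SD), with limma P = 0.0106, adjusted P = 0.245 and exact permutation P = 0.026. Its probe lies at chr5:115560887-115560946 in mm9. Acadm, the medium-chain enzyme and a classical PPAR alpha target, read 14.28, 14.24, 14.54, 14.75 and 14.96 in nitrate treated mice 1 to 5 and 14.27, 14.65 and 15.08 at the lowest, median and highest control. Its difference was -0.10 (95% confidence interval -0.44 to 0.24, exact permutation P = 0.535), with the nitrate values spread over nearly the whole control range. The very long-chain and long-chain enzymes Acadvl and Acadl had differences of -0.18 and -0.22 and did not meet the rule.

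The later steps of the cycle are carried out by the trifunctional protein (Hadha, Hadhb) and by Echs1, Hadh and the thiolase Acaa2. Acaa2, which releases acetyl-CoA, read 14.96, 14.84, 15.14, 15.60 and 15.77 in nitrate treated mice 1 to 5 and 15.29, 15.70 and 16.06 at the lowest, median and highest control. Here too nitrate treated mice 1 to 3 lay below every control and mice 4 and 5 near the control median. Acaa2 fell by 0.43 (SE 0.18), a fold change of 1.35, with limma P = 0.0331, adjusted P = 0.317 and exact permutation P = 0.0606. It no longer met the rule without nitrate treated mouse 1, 2 or 3 or control 1, 2 or 4, where its difference lay between -0.42 and -0.32. The subunits of the trifunctional protein are transcribed from start sites 273 bases apart on opposite strands in GRCm38.p6, and their differences were -0.21 for Hadha and -0.35 for Hadhb (exact permutation P = 0.359 and 0.104). Echs1, the enoyl-CoA hydratase, and Hadh, the hydroxyacyl-CoA dehydrogenase, had differences of -0.29 and -0.27 and did not meet the rule.

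Electron transferring flavoprotein takes up the electrons of the acyl-CoA dehydrogenases. Its beta subunit Etfb read 15.10, 15.11, 15.30, 15.70 and 15.72 in nitrate treated mice 1 to 5 and 15.51, 15.72 and 15.85 at the lowest, median and highest control. The nitrate values fell into a low set of mice 1 to 3, below every control, and a pair close to the control median. Etfb fell by 0.32 (SE 0.13), a fold change of 1.25, with limma P = 0.0246, adjusted P = 0.294 and exact permutation P = 0.0563. Without nitrate treated mouse 1, 2 or 3 it did not meet the rule (differences of -0.25, -0.26 and -0.30). The alpha subunit Etfa and Etfdh, which passes the electrons on to ubiquinone, had differences of -0.15 and -0.11. The auxiliary and peroxisomal enzymes Decr1, Acot2, Ehhadh and Acaa1a had differences of -0.25, -0.23, -0.27 and -0.03, and 0 of the 4 met the rule. Acot2 was detected on 3 of 5 nitrate and 6 of 6 control arrays, and so passed the detection rule through the controls alone.

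**Figure D3:**
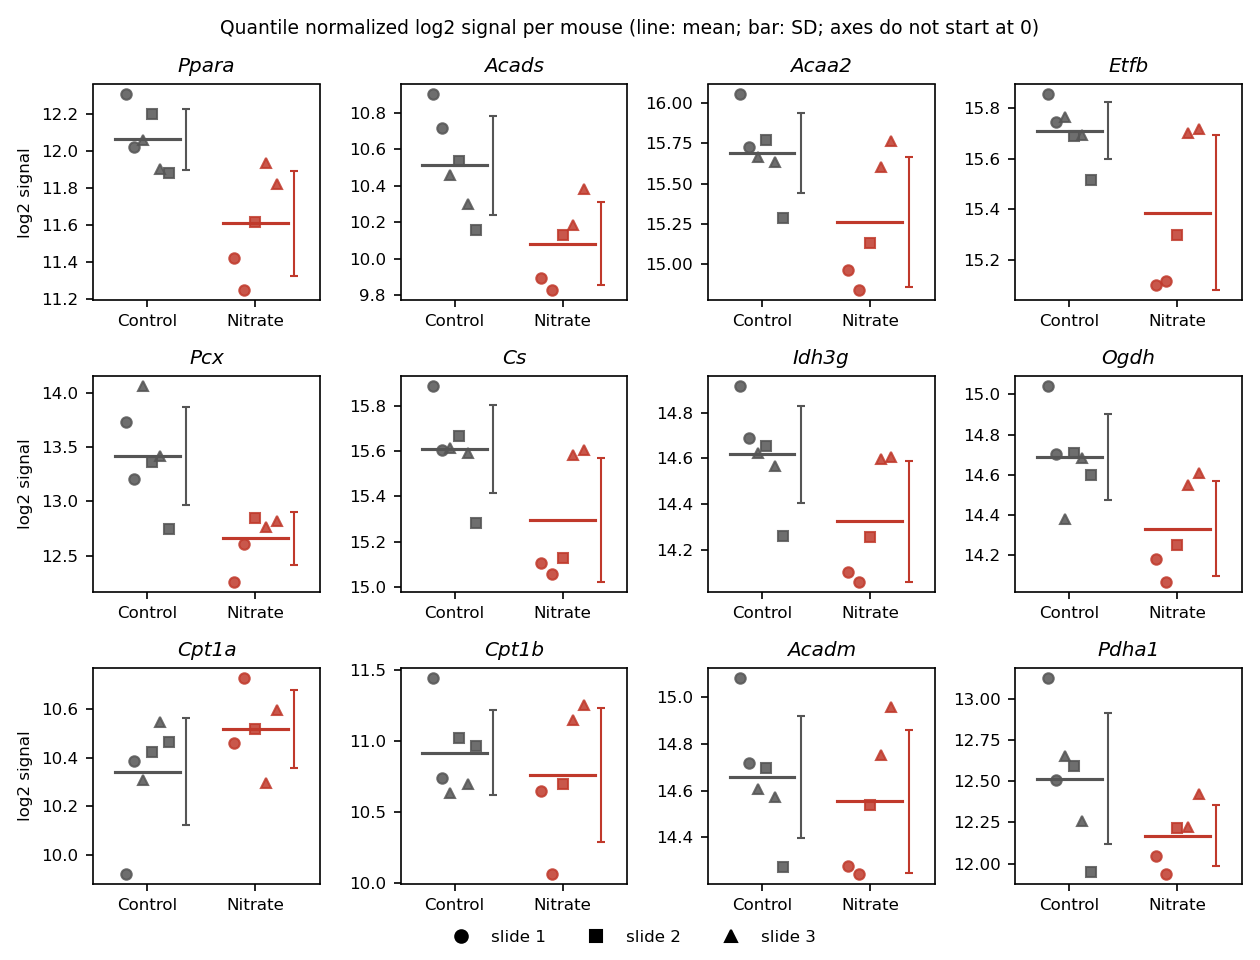
Quantile normalized log2 signal of the 8 genes that met the rule and of Cpt1a, Cpt1b, Acadm and Pdha1 in each mouse, with the mean as a line, the SD as a bar and the slide as the symbol. In Acaa2, Etfb, Cs and Idh3g the nitrate treated mice of slides 1 and 2 lie below those of slide 3, which lie among the controls.

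Pyruvate enters the cycle through pyruvate dehydrogenase as acetyl-CoA or through pyruvate carboxylase, encoded by Pcx, as oxaloacetate. Pcx is also a part of the shuttle that provides citrate for fatty acid synthesis in adipocytes. It read 12.26, 12.60, 12.85, 12.76 and 12.82 in nitrate treated mice 1 to 5 and 12.74, 13.39 and 14.06 at the lowest, median and highest control. Only control 6 lay within the range of the nitrate treated mice, and the other 5 controls lay above all of them. Pcx had the largest difference of the 39 genes. It fell by 0.76 (SE 0.20), a fold change of 1.69, from 13.42 ± 0.45 to 12.66 ± 0.24 (SD), with limma P = 0.00276, adjusted P = 0.173 and exact permutation P = 0.0108. Its probe lies at chr19:4621610-4621669 in mm9. Pdha1, the catalytic alpha subunit of pyruvate dehydrogenase, read 12.05, 11.94, 12.22, 12.22 and 12.42 in nitrate treated mice 1 to 5 and 11.95, 12.55 and 13.12 at the lowest, median and highest control. The nitrate values lay below the control median but overlapped the lower controls, and the difference was -0.34 (95% confidence interval -0.73 to 0.04, limma P = 0.0734, exact permutation P = 0.104). Pdhb, the beta subunit, had a difference of 0.04, with -0.09 in its second probe and a change of sign in several other settings, and Dlat, the acetyltransferase of the complex, of -0.21.

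In the first steps of the cycle, 2 of 5 genes met the rule. Citrate synthase, encoded by Cs and often used as a measure of mitochondrial content, read 15.10, 15.05, 15.13, 15.59 and 15.61 in nitrate treated mice 1 to 5 and 15.28, 15.61 and 15.89 at the lowest, median and highest control. Mice 1 to 3 lay below every control and mice 4 and 5 at the control median. Cs fell by 0.31 (SE 0.13), a fold change of 1.24, with limma P = 0.036, adjusted P = 0.321 and exact permutation P = 0.0541. Idh3g, a regulatory subunit of the NAD-dependent isocitrate dehydrogenase, read 14.10, 14.06, 14.26, 14.60 and 14.61 in nitrate treated mice 1 to 5 and 14.26, 14.64 and 14.92 at the lowest, median and highest control. The same mice, 1 to 3, were its low ones. Idh3g fell by 0.29 (SE 0.13), a fold change of 1.23, with limma P = 0.0486, adjusted P = 0.345 and exact permutation P = 0.0628. Cs and Idh3g no longer met the rule when any of nitrate treated mice 1 to 3 or controls 1 to 5 was left out, where the difference of Cs lay between -0.32 and -0.25 and that of Idh3g between -0.30 and -0.23. The other subunits of that enzyme, Idh3a and Idh3b, had differences of -0.21 and -0.34 (exact permutation P = 0.409 and 0.0758), and the NADP-dependent Idh2 had -0.08. Probes of Cs and Idh3g lie at chr10:127799428-127799487 and chrX:71024358-71024417 in mm9.

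Ogdh, the first enzyme of the oxoglutarate dehydrogenase complex, read 14.18, 14.07, 14.25, 14.55 and 14.61 in nitrate treated mice 1 to 5 and 14.38, 14.70 and 15.04 at the lowest, median and highest control. Nitrate treated mice 1 to 3 lay below every control, and controls 3 and 6 lay within the range of the nitrate group. Ogdh fell by 0.35 (SE 0.13), a fold change of 1.28, with limma P = 0.0165, adjusted P = 0.273 and exact permutation P = 0.0368. The other probes of Ogdh had differences of -0.21 and -0.07 and did not meet the rule (exact permutation P = 0.123 and 0.561), so that its call rested on the brightest of 3 probes, at chr11:6256511-6256570 in mm9. The partners Dlst and Dld, the latter shared with pyruvate dehydrogenase, had differences of -0.07 and -0.18. The subunits of succinyl-CoA ligase, Suclg1, Suclg2 and Sucla2, had differences of -0.21, -0.05 and -0.14. Fumarase (Fh1) and mitochondrial malate dehydrogenase (Mdh2) had differences of -0.16 and -0.19, and neither met the rule.

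The members were low or high together in single mice. In nitrate treated mice 1, 2 and 3, 38, 38 and 37 of the 39 genes lay below the control median. In nitrate treated mice 4 and 5 the numbers were 19 and 8. Mouse 2 had the lowest value of all 11 mice in 29 genes, and control 1 had the highest in 28. Control 6 lay below the control median in 37 genes. Such counts were not made for all detected transcripts, and the genes of 1 mouse are not independent of each other. The mean level of the 22 fatty acid oxidation genes, relative to the mean of all mice, was -0.37, -0.42, -0.21, 0.08 and 0.33 in nitrate treated mice 1 to 5, and -0.17, 0.07 and 0.46 at the lowest, median and highest control. The mean level of the 17 citric acid cycle genes was -0.32, -0.41, -0.19, 0.09 and 0.21 in nitrate treated mice 1 to 5, and -0.24, 0.11 and 0.48 at the lowest, median and highest control. Nitrate treated mice 1 and 2 were the lowest of the 11 in both lists, and mice 4 and 5 lay inside the control range.

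The brown adipocyte markers, 9 genes including Ucp1, had mean levels of -0.25, -0.59, -0.12, 0.32 and 0.31 in nitrate treated mice 1 to 5, and -0.18, -0.07 and 0.60 at the lowest, median and highest control. They were thus low and high in the same nitrate treated mice as the members. By the rule 2 of the 9 were lower and 0 higher, and the difference of Ucp1 was 0.23 (exact permutation P = 0.662). The adipocyte markers, which had Adipoq at a difference of -0.49 without overlap between the groups, were lowest in nitrate treated mouse 1. For striated muscle, 10 of 11 detected markers had a difference above 0, 1 of which met the rule as higher, and the difference of Myh6 was 1.64 (exact permutation P = 0.286). Of 8 smooth muscle markers 1 was higher by the rule, and their mean level lay between -0.06 and 0.18 in nitrate treated mice and between -0.36 and 0.07 in controls. None of the 7 endothelial, 6 fibroblast and 6 macrophage markers met the rule. The difference was above 0, the direction opposite to that of most members, in 7 of 8 smooth muscle, 6 of 6 fibroblast and 6 of 6 macrophage markers. It was below 0 in 4 and above 0 in 3 of the 7 endothelial markers, with a median of -0.09. Below 0 were also 9 of 10 adipocyte and 5 of 9 brown adipocyte markers. Among all detected transcripts 46.2% were below 0, and by the rule 4.85% were lower and 4.16% higher. The part of these cell types in the differences of the members was not tested.

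**Figure D4:**
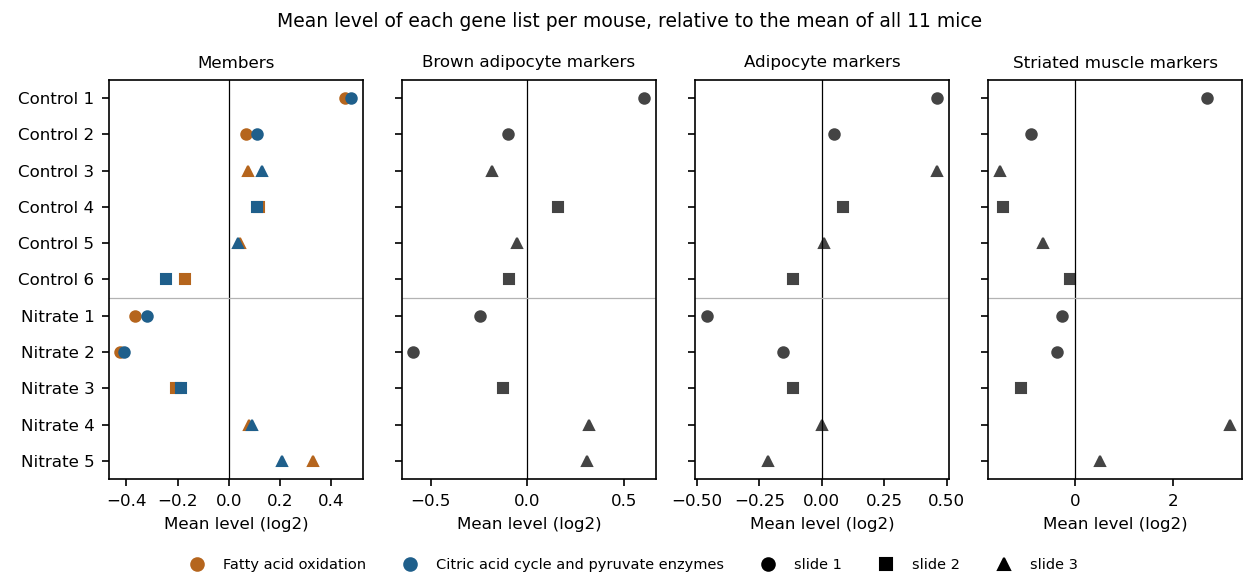
Mean log2 level of the members and of adipocyte, brown adipocyte and striated muscle markers in each mouse, relative to the mean of all 11 mice, with the slide as the symbol. Nitrate treated mice 1 to 3 lie below 0 and mice 4 and 5 above 0 in the members and in the brown adipocyte markers, and the striated muscle markers reach 3.17 in nitrate treated mouse 4 and 2.68 in control 1.

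Within slides the differences did not run the same way. On slide 1, 38 of the 39 genes were lower in the nitrate treated mice than in the controls of that slide, with a median of -0.69. On slide 2, with 1 nitrate treated mouse, 34 were lower, with a median of -0.14. On slide 3, 9 were lower and 30 higher, with a median of 0.12. The medians of all detected transcripts were 0.04, 0.01 and 0.02 on these slides. With slide as a block in the model, 10 members were lower by the rule and 0 higher, against 5.39% of all detected transcripts lower.

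A total of 9 genes were lower on each of the 3 slides, namely Acads, Hadhb, Etfb, Ehhadh, Ppara, Pdha1, Dlat, Pcx and Cs, and Cpt1a was higher on each. The share of all detected transcripts lower on each of the 3 slides was not computed, so the count of 9 cannot be set against it. Pcx differed by -1.04, -0.21 and -0.95 on slides 1, 2 and 3 and was the only member below -0.26 on slide 3, where the others lay between -0.26 and 0.54. Ppara differed by -0.83, -0.43 and -0.10, and Acads by -0.95, -0.21 and -0.10. Etfb, Cs, Hadhb and Dlat differed by only -0.02, -0.01, -0.03 and -0.03 on slide 3. The difference of Ogdh on slide 3 was 0.05, and those of Acaa2 and Idh3g were 0.03 and 0.01. Fatty acid oxidation genes had a median of 0.13 and citric acid cycle genes of 0.07 on that slide. These within-slide values of single genes rest on 1 or 2 mice of a group and are given without a P value.

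**Figure D5:**
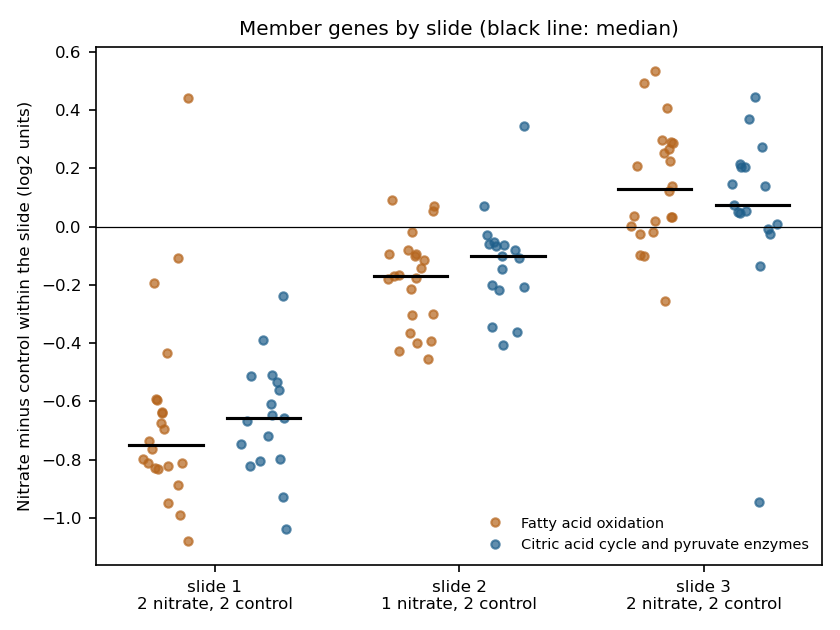
Difference of each of the 39 genes in log2 units within each slide, for fatty acid oxidation genes and citric acid cycle and pyruvate enzymes, with black lines at the medians. The medians are -0.75 and -0.66 on slide 1, -0.17 and -0.10 on slide 2 and 0.13 and 0.07 on slide 3.

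Among 43 further detected genes of fatty acid transport and oxidation, 6 were lower by the rule and 0 higher, with a median difference of -0.12. The same rule named 4.85% of all 23630 detected transcripts as lower and 4.16% as higher, and their median difference was 0.01. Hsd17b10, a mitochondrial hydroxyacyl-CoA dehydrogenase, fell by 0.28 and had an exact permutation P of 0.00433. The fatty acid transporter Slc27a1 fell by 0.47, Pex11a, a protein of peroxisome division, by 0.48, and Eci1, the enoyl-CoA isomerase listed on the array as Dci, by 0.37. Crat (carnitine acetyltransferase) fell by 0.41 and Pccb, a subunit of propionyl-CoA carboxylase, by 0.28. The unadjusted limma P values of these 6 genes lay between 0.0045 and 0.042, and the lowest adjusted P was 0.195.

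Among 31 further detected genes around the citric acid cycle, 9 were lower by the rule and 0 higher, with a median of -0.23. For all detected transcripts the shares were 4.85% lower and 4.16% higher, with a median of 0.01. Acly, the ATP citrate lyase, which turns citrate into acetyl-CoA for lipid synthesis, read 14.07, 13.74, 14.34, 13.67 and 13.78 in nitrate treated mice 1 to 5 and 13.71, 14.75 and 16.40 at the lowest, median and highest control, and it fell by 1.07 (SE 0.40, exact permutation P = 0.0411, adjusted P = 0.285 in limma). Its controls were spread widely, and controls 1 and 3 were the highest. The citrate carrier Slc25a1 fell by 0.88 and the dicarboxylate carrier Slc25a10 by 0.80. Pdk2, a kinase that inhibits pyruvate dehydrogenase, fell by 0.46 and the mitochondrial malic enzyme Me3 by 0.29. Pdk4, another such kinase and a PPAR target, had a difference of -0.30 (exact permutation P = 0.297).

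Of 21 regulators and targets of the pathway, 4 were lower by the rule and 0 higher, with a median of -0.08. For all detected transcripts the shares were 4.85% lower and 4.16% higher, with a median of 0.01. Pparg, which encodes the PPAR of adipocyte differentiation, read 11.71, 11.53, 11.69, 12.16 and 12.15 in nitrate treated mice 1 to 5 and 12.22, 12.41 and 12.68 at the lowest, median and highest control. Every nitrate treated mouse lay below every control, mice 4 and 5 closest to them. Pparg fell by 0.57 (SE 0.13), with limma P = 0.000794, adjusted P = 0.13 and an exact permutation P of 0.00216, the smallest that the 462 divisions can give. Rxra, the partner of the PPARs on DNA, fell by 0.34, the coactivator Ppargc1b by 0.26 and the PPAR target Angptl4 by 0.53, with limma P values of 0.00862, 0.0427 and 0.0495. Ppargc1a, the coactivator of mitochondrial biogenesis, had a difference of -0.15 (SE 0.36, exact permutation P = 0.703), and Ucp3, a mitochondrial carrier of muscle and brown fat, had -0.19 (exact permutation P = 0.206).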

How the data were processed

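RNA of the aorta of 11 old male mice was measured on one-color Agilent arrays, 5 nitrate treated and 6 control. The authors deposited, per array, spot intensities and quality flags from Feature Extraction 10.7.1.1, background-subtracted and not normalized between arrays. They also deposited a table of log2 values, which correlated with the quantile normalized values centred here and has column medians of -0.0268 to 0. The controls may come from an earlier experiment, and whether both groups were kept together was not tested.

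Processed signals below 1 were set to 1 before log2 was taken. Control spots and spots flagged as outliers (107 to 186 of 59305 per array) were dropped, repeated spots were averaged per probe, and quantile normalization followed over the 11 arrays. The 23630 of 55681 probes with a spot found and well above background in 5 or more mice of a group were tested with limma 3.58.1 in R 4.3.3 (lmFit, eBayes). The rule was that of the paper, P under 0.05 without adjustment together with a fold change over 1.2, with Benjamini-Hochberg adjustment over all detected probes. The test was checked on simulated data. Single values were also tested by exact two-sided permutation over 462 divisions of the mice. Where a gene had several detected probes, the one with the brightest mean was used. Probe positions are in mm9, the build in the files. Promoters and older gene names (Eci1, Eci2, Mpc1, Mpc2 and Adgre1, matched by accession) came from RefSeq tables of GRCm38.

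The members and lists were chosen with earlier results of these data known. Members that met the rule, members without overlap, and Cpt1a, Cpt1b, Ppara, Acadm, Cs, Ogdh, Pdha1 and Pcx were given by array. From each wider list at most 6 genes, those with the lowest P values among the genes that met the rule, were named, plus Pdk4, Ucp3, Pparg and Ppargc1a, and some genes of these lists are not reported here. Myh7, a striated muscle marker, was not detected, and Ppargc1a stands in the regulator and the brown adipocyte lists. Alternatives covered normalization, background correction, the deposited table, detection, flagged spots, prior variance, slide and replicate number as blocks, the choice of probe, the thresholds and each array left out. Settings by slide, and without nitrate treated mouse 4 and control 1, were added after seeing the data. The number of arrays limits the precision.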

Additional observations from a re-analysis of the deposited data

Results flagged for a closer look

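Of 82 groups of values checked, over the 39 members and the list levels, 3 held a mouse far from the others of its group, and about 4.1 would be so by chance. All 3 were controls. Control 1 was high in Slc25a20, at 11.59 against 10.75 in the next control, a gap of 0.638 of the range of the group. Control 1 was also high in Hadha, at 11.75 against 11.04, a gap of 0.638 of the range. Control 6 was low in Fh1, at 12.77 against 13.13, a gap of 0.7 of the range.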

How the results depend on the processing

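Pcx, Ppara and Acads met the rule in 22 of 22 other settings (slides taken alone and other thresholds apart), Ogdh in 21, Etfb in 19, Acaa2 in 16, Cs in 14 and Idh3g in 13. Ogdh was lost with the mean of all its probes (-0.21) and Idh3g without a detection filter (-0.29). The number of all transcripts that met the rule was 2127, and 1217 after normexp background correction, 3224 without a detection filter, 3393 without a limit on the fold change and 3 at an adjusted P value under 0.05, where 0 fatty acid oxidation and 0 citric acid cycle genes were left (4 and 4 at an unadjusted P value under 0.05). After normexp, 64.2% of these transcripts were lower in nitrate treated mice, against 53.8% with the processed signal of the main values. Leaving out 1 mouse at a time gave 1595 to 2423 transcripts, 2 to 10 fatty acid oxidation genes with medians of -0.34 to -0.11, and 2 to 6 citric acid cycle genes with medians of -0.28 to -0.11. The citric acid cycle count was 2 without any of nitrate treated mice 1 to 3 or controls 1 to 5, and the fatty acid oxidation count was 2 without nitrate treated mouse 1, 2 or 3. On slides 1 and 2 only, 13 fatty acid oxidation genes (median -0.50) and 9 citric acid cycle genes were lower, against 6.7% of all transcripts. On slide 3 only, 0 and 1 were lower and 3 and 1 higher, with medians of 0.13 and 0.074, against 731 of all transcripts lower (3.09%) and 841 higher. The slide settings were chosen after seeing the data, and the cause of the difference between slides was not tested.

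With the replicate number as a block, 2432 transcripts met the rule (5.63% of all lower), and 5 fatty acid oxidation and 6 citric acid cycle genes were lower, with medians of -0.29 and -0.26. That fit takes no information from control 6, which has no nitrate partner. Hadhb, Pdha1 and Idh3b were then lower by the rule as well. The deviations of same-numbered mice correlated at -0.137 to 0.18, and 1 of 5 mice correlated best with its own number, so the numbers gave no pairing.

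Apart from slides taken alone, signs changed in 7 genes. Pdhb was at -0.0034 with slide as a block, -0.080 with the replicate block and -0.026 with the mean of its probes, and Cpt2 at 0.0099 without nitrate treated mouse 4 and control 1. With 1 mouse left out at a time, the difference lay between -0.080 and 0.23 for Pdhb, -0.24 and 0.042 for Cpt2, -0.28 and 0.019 for Cpt1b, -0.30 and 0.035 for Etfdh, -0.081 and 0.0098 for Acaa1a, -0.15 and 0.010 for Dlst, and -0.089 and 0.016 for Suclg2.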
